A study of Homo sapiens with 16 samples.

Results

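The 10 genes described here are the B-lineage transcription factors PAX5, EBF1, TCF3, SPIB, POU2AF1, BCL6, PRDM1, IRF4 and IRF8 together with ID2, an inhibitor of E proteins such as TCF3. They were taken as every gene-level and exon-level probe set whose only gene symbol is one of these names. That gave 9 of 33297 gene-level and 113 of 257430 exon-level probe sets, for 10 genes against 18395 named genes at gene level. EBF1 has no gene-level probe set of its own, since the 1 that names it also names PDGFRB, so EBF1 is described by its 18 exon-level probe sets. A further exon-level probe set that names ID2 beside ID2B was left out.

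The RNA came from L1236, an established human Hodgkin lymphoma line, grown in RPMI with serum and hybridised to Affymetrix whole-transcript arrays. All cells carried a retrovirus that encodes a short hairpin RNA against RELB, the NF-kB subunit through which the alternative pathway acts. In the 4 arrays labelled induced the cells had received doxycycline to switch the hairpin on, and in the 4 arrays labelled uninduced the infected cells had not. Sample titles hold a code, B_1 or B_4, and end in 1 or 4; the labels explain neither. Replicates 1 and 2 of each group are B_1 (ending in 1 and 4), and replicates 3 and 4 are B_4 (ending in 1 and 4). No group has doxycycline without the hairpin or another hairpin, so these agents cannot be told apart. Separate cultures are not stated for the arrays, so the p-values below reflect array-to-array spread only, which may be technical. Values are log2 signals after RMA, which corrects background, equalises arrays and summarises probes. They set 1 probe set against itself across arrays and are not comparable between genes.

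PAX5, EBF1 and TCF3 are the core of B-cell identity: TCF3 and EBF1 open the B-lineage programme and PAX5 holds it by activating B-cell genes and repressing those of other lineages. SPIB, POU2AF1, IRF4 and IRF8 act on mature and germinal centre B cells. BCL6 sustains the germinal centre state, and PRDM1 ends it and drives plasma cell differentiation. Hodgkin and Reed-Sternberg cells derive from germinal centre B cells but have lost much of this programme, and they are known to keep some PAX5 and to express ID2.

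Several facts of the whole data set touch every result below. The targeted gene, RELB, had log2 signals of 7.22, 7.26, 7.39 and 7.14 in the arrays labelled induced (replicates 1 to 4), against 7.23, 7.38, 7.54 and 7.45 in those labelled uninduced. Its difference was -0.15 ± 0.09 (SE; exact permutation test, two-sided, p = 0.171, where 0.0286 is the smallest possible; limma adjusted p = 0.212), so directions between the groups rest on the labels alone. A gene was called where limma's adjusted p lay under 0.05. The gene-level array medians lay between 5.79 and 5.88, and a gene was tested where its mean over the 8 arrays was 4.78 or more. Of 10 Hodgkin cell markers 2 rose and 7 fell, and the 4 with the lowest limma p are given here. TNFRSF8 (CD30) averaged 11.59 in arrays labelled induced and 6.89 in arrays labelled uninduced. CD274 (PD-L1) averaged 4.11 labelled induced and 9.91 labelled uninduced, GATA3 4.81 and 9.999, and IL13RA1 3.35 and 10.20, in the same order. CD274 and IL13RA1 thus lay under the tested range in the arrays labelled induced. Because these are bulk samples, fewer cells of a type and less RNA per cell cannot be told apart. Uninduced arrays of one B code correlated at 0.994 or more with each other and at 0.988 or less with the other B code, across genes, which are not independent replicates. Induced arrays did not separate in this way: the lowest correlation inside a B code was 0.989 and the highest across B codes 0.991.

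Between the induction labels 8 of the 9 genes with a gene-level probe set passed limma, 5 of them higher (PAX5, POU2AF1, PRDM1, IRF4 and IRF8) and 3 lower (ID2, BCL6 and SPIB) in the arrays labelled induced. TCF3 did not pass. Over all tested genes 55.5% passed, 27.1% higher and 28.4% lower, so a call by itself says little about these genes. The sizes differ more: a difference of at least ID2's size was seen for 0.384% of tested genes, of at least PRDM1's size for 2.22% and of at least PAX5's size for 3.15%. All 9 passed the filter on low values. For 7 of the 9, all induced values lay on one side of all uninduced values, against 49.8% of all tested genes. A called difference of at least 1 log2 unit was found for PAX5, PRDM1, IRF8 and ID2, and for 16.5% of all tested genes.

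**Figure D1:**
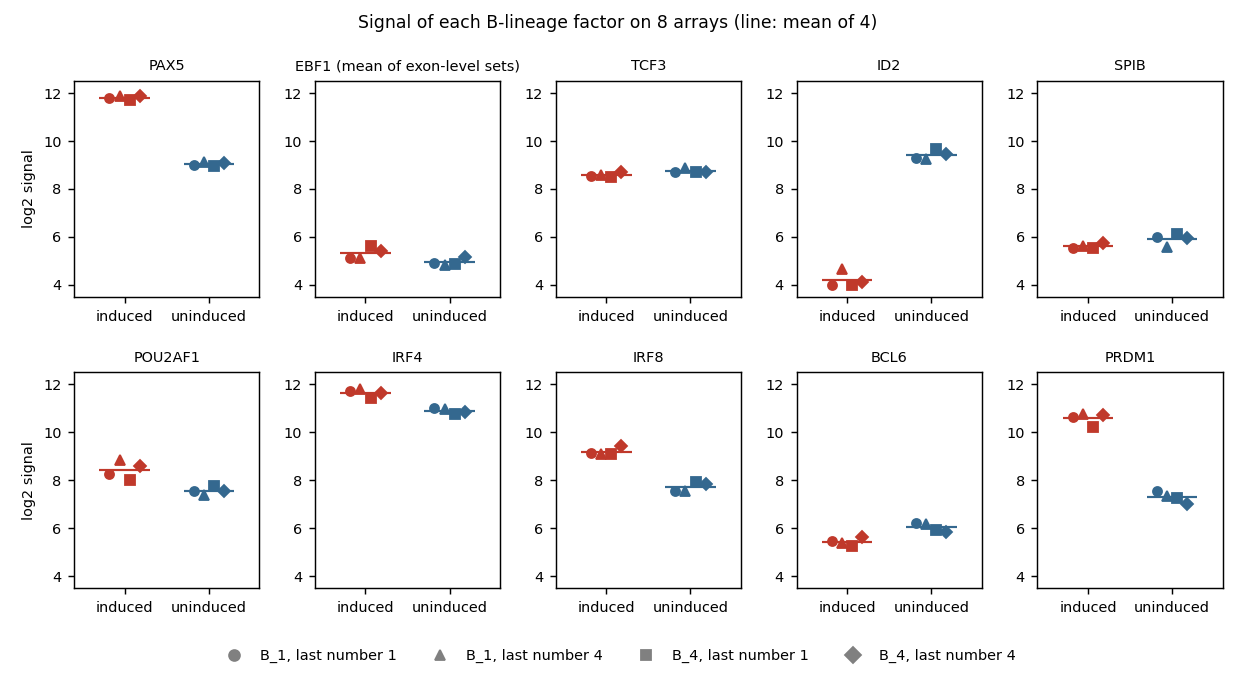
Log2 signal (vertical axis) of each gene on the 4 arrays labelled induced (red, left) and the 4 labelled uninduced (blue, right); marker shapes give B code and last number, lines the group means, and EBF1 is averaged over exon-level probe sets. PAX5 and PRDM1 sit far higher and ID2 far lower in the arrays labelled induced, while the values of EBF1, TCF3 and SPIB overlap between the groups.

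PAX5, the factor that commits cells to the B lineage, had log2 signals of 11.80, 11.87, 11.71 and 11.87 in the arrays labelled induced, against 9.01, 9.12, 8.98 and 9.08 in the arrays labelled uninduced. Each group was tight, with means of 11.81 ± 0.08 and 9.05 ± 0.06 in that order (SD, n = 4 each), and the gap between them was many times the spread within either. PAX5 rose by 2.76 ± 0.08 (SE; 95% interval 2.60 to 2.93), a 6.80-fold higher signal, with a limma adjusted p of 3.04e-10. All 12 of its exon-level probe sets rose, by 2.04 to 3.49. The promoter of PAX5 as RefSeq places it is shown because PAX5 is the core factor that changed most. It spans 250 bases before to 50 after the annotated gene start on GRCh38.p14, and capitals mark matches to the E-box CANNTG, the core motif of E proteins such as TCF3.
PAX5, chr9:37034219-37034518, strand -: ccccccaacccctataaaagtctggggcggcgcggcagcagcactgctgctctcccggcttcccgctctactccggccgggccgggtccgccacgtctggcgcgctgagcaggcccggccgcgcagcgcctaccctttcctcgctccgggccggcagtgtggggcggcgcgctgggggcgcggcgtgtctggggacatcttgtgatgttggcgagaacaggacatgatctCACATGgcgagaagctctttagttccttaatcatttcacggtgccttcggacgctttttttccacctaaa
It holds 1 E-box. Such a match is common: 68.7% of 35116 promoters of this length hold 1 or more, on either strand, since the motif is a palindrome.

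EBF1 acts with TCF3 upstream of PAX5. Averaged over its 18 exon-level probe sets, its log2 signal was 5.13, 5.14, 5.63 and 5.41 in arrays labelled induced, against 4.90, 4.84, 4.88 and 5.15 in arrays labelled uninduced. The groups overlap, since uninduced replicate 4 lies above the 2 lowest induced values. The mean rose by 0.38 ± 0.10 (1.31-fold; limma adjusted p = 0.00788 over 13992 genes summarised in this way, of which 56.4% passed and 28% rose). The group means, 5.33 labelled induced and 4.94 labelled uninduced, lie under the exon-level array medians (6.51 to 6.59). This average includes probe sets too dim to test, since only 11 of the 18 passed the filter on low values. Of these 11, 1 rose, the 14th in order of probe set number: 6.59, 5.95, 6.34 and 6.17 in arrays labelled induced, against 4.93, 4.39, 5.23 and 5.60 labelled uninduced, a difference of 1.23 ± 0.25 (adjusted p = 0.00775). The second lowest p belonged to the 10th, at 0.55 ± 0.18 (adjusted p = 0.0511).

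TCF3, the gene of the E proteins E12 and E47, had log2 signals of 8.52, 8.59, 8.49 and 8.72 in arrays labelled induced, against 8.70, 8.87, 8.72 and 8.73 in those labelled uninduced. The groups overlap slightly, with induced replicate 4 above uninduced replicate 1. The difference of -0.17 ± 0.08 (95% interval -0.36 to 0.01) did not pass (adjusted p = 0.0977), while quantile normalisation of the arrays gave -0.22 and an adjusted p of 0.0323. Of its 21 exon-level probe sets 2 fell, the third by 0.58 and the fourth by 0.59 log2 units (adjusted p = 0.0236 and 0.0181). The other 19 did not pass, and their differences ran from -0.47 to 0.28.

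ID2, which binds E proteins and keeps them off DNA, showed the largest difference of the 9. Its log2 signals were 4.01, 4.64, 4.003 and 4.10 in the arrays labelled induced, against 9.29, 9.23, 9.68 and 9.44 in the arrays labelled uninduced. Induced replicate 2 lies above the other induced arrays, which are close together, and all 4 lie far below every uninduced value. The fall of 5.22 ± 0.15 (95% interval of the difference -5.56 to -4.88) makes the signal 37.3-fold lower (adjusted p = 5.34e-10). The induced mean of 4.19 ± 0.31 (SD, n = 4) lies under the tested range, so the fold rests on a dim signal. The promoter of ID2 is shown because no other gene of the 9 changed as much, with E-boxes in capitals.
ID2, chr2:8681806-8682105, strand +: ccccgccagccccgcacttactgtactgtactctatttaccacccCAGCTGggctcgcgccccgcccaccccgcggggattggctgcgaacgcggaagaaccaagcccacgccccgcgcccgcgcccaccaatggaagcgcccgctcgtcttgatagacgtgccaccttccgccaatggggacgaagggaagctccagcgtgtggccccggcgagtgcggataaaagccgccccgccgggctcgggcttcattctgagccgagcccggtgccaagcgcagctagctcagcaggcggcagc
It also holds 1 E-box.

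The exon-level probe sets of ID2 did not move together. In order of probe set number, the last 4 of the 7 fell by 5.33, 6.02, 5.56 and 5.76 log2 units, each with an adjusted p of 1.83e-05 or lower. The 2 with the lowest p were the seventh, with 4.94, 4.58, 5.01 and 5.14 in arrays labelled induced against 10.41, 10.37, 10.95 and 10.99 labelled uninduced, and the fifth, with 4.03, 4.25, 3.72 and 3.72 against 9.80, 9.70, 10.13 and 10.18. The induced means of the fifth (3.93) and the sixth (2.97) lie under 4.77, the lowest exon-level mean tested. Both were tested through their uninduced values, and the size of their falls rests on a dim signal. The third, chosen for mention after its values were seen, gave 7.65, 8.49, 7.61 and 8.67 in arrays labelled induced, against 7.82, 8.04, 8.22 and 8.31 labelled uninduced. Its difference of 0.01 ± 0.21 leaves both groups level at a signal well above the tested minimum. The first was dimmer and did not pass either (-0.42 ± 0.28, adjusted p = 0.304), and the second was too dim to test. The mean over all 7 fell by 3.46 (11.04-fold), less than the gene-level probe set. No coordinates of the probe sets were used, so the order of their numbers is not shown to be that of the exons, and whether the third measures ID2 transcripts alone was not tested.

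**Figure D2:**
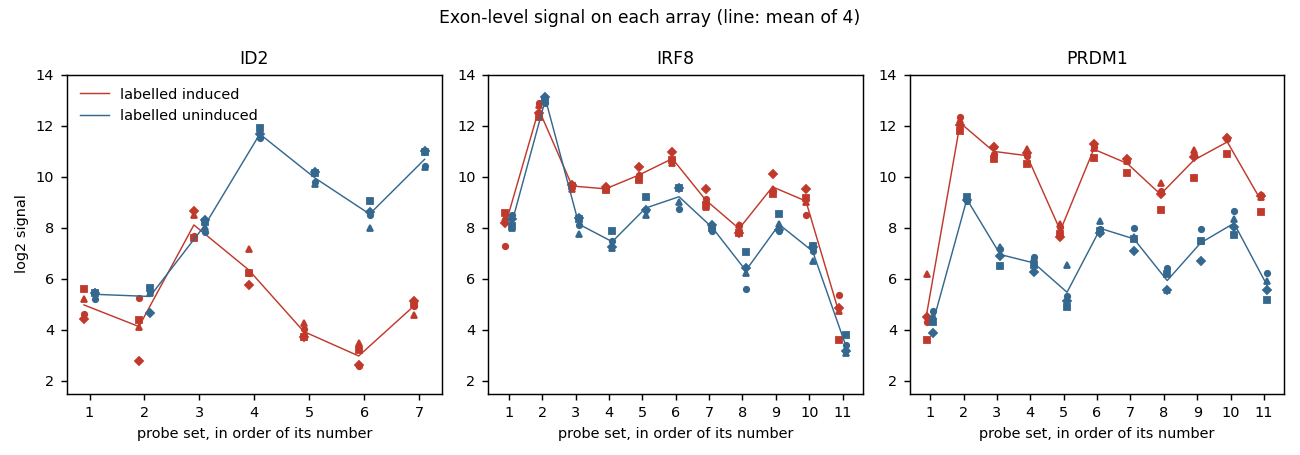
Log2 signal (vertical axis) of each exon-level probe set of ID2, IRF8 and PRDM1, in order of probe set number (horizontal axis), on arrays labelled induced (red) and uninduced (blue); markers are single arrays and lines the group means. The first and the third probe set of ID2 and the first 2 of IRF8 lie close together in both groups, while the later tested ones are apart.

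SPIB, an ETS factor of B cells and plasmacytoid dendritic cells, had log2 signals of 5.54, 5.64, 5.52 and 5.74 in arrays labelled induced, against 6.01, 5.58, 6.13 and 5.96 in arrays labelled uninduced. Uninduced replicate 2 falls among the induced values, and the other uninduced arrays lie above all of them. SPIB fell by 0.31 ± 0.11 (adjusted p = 0.0369), a 1.24-fold lower signal near the array median. The call is weak: it was lost without uninduced replicate 1, 3 or 4 or induced replicate 1 or 3 (adjusted p from 0.0766 to 0.141), and within B_1 (adjusted p = 0.311). None of its 4 tested exon-level probe sets passed, at an adjusted p of 0.751 or higher, nor did the mean of its 5 probe sets (-0.18 ± 0.12, adjusted p = 0.207).

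POU2AF1, the coactivator OBF-1 that joins the octamer factors on immunoglobulin promoters, had log2 signals of 8.27, 8.84, 8.02 and 8.61 in arrays labelled induced, against 7.57, 7.40, 7.76 and 7.55 labelled uninduced. Every induced value lies above every uninduced one, and the induced values are the more spread (SD 0.37 against 0.15). The rise was 0.86 ± 0.16 (1.82-fold; adjusted p = 7.24e-04). Of its 7 exon-level probe sets 6 were tested and 4 rose, with the lowest p at the first (1.16 ± 0.25) and the second (1.23 ± 0.27).

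IRF4, a factor needed for plasma cell differentiation and known to be abundant in Hodgkin cells, had log2 signals of 11.72, 11.80, 11.43 and 11.64 in arrays labelled induced, against 11.01, 10.98, 10.78 and 10.83 in arrays labelled uninduced. The signal was bright in both groups, which do not overlap. IRF4 rose by 0.75 ± 0.08 (1.68-fold; adjusted p = 1.39e-05), and all 11 of its exon-level probe sets rose, by 0.52 to 1.25. The first of them, which rose the most, had an uninduced mean of 4.41, under the lowest exon-level mean tested (4.77).

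IRF8, a partner of ETS factors in germinal centre B cells and myeloid cells, gave 9.15, 9.09, 9.08 and 9.45 labelled induced, against 7.57, 7.54, 7.91 and 7.83 labelled uninduced. The groups are well separated, and IRF8 rose by 1.47 ± 0.10 (2.78-fold; adjusted p = 3.35e-07). Of 10 tested exon-level probe sets 8 rose, by 1.08 to 2.07, the lowest p being those of the fourth (2.07 ± 0.18) and the tenth (1.96 ± 0.19). The second, named here after its values were seen, was very bright, with 12.90, 12.79, 12.33 and 12.51 in arrays labelled induced against 12.87, 13.11, 13.02 and 13.14 labelled uninduced. It did not rise: its difference was -0.41 ± 0.17 (adjusted p = 0.108), and that of the first was -0.11 ± 0.30 (adjusted p = 0.803).

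BCL6, the repressor that maintains germinal centre B cells, had log2 signals of 5.47, 5.37, 5.28 and 5.65 in arrays labelled induced, against 6.22, 6.16, 5.91 and 5.84 in arrays labelled uninduced. All induced values lie below all uninduced ones, with replicate 4 of each group the nearest to the other group. BCL6 fell by 0.59 ± 0.11 (1.51-fold lower; adjusted p = 9.45e-04), at means of 5.44 labelled induced and 6.03 labelled uninduced, near the array median. Of 8 tested exon-level probe sets 3 fell, the sixth by 1.38 and the seventh by 1.23 with the lowest p, and 5 did not pass. The induced means of the sixth and the seventh lie under the lowest exon-level mean tested (4.77). The size of their falls thus rests on a dim signal. The first of the 2 BCL6 promoters that RefSeq gives is printed because it carries repeated matches to TTCNNNGAA (capitals), the palindrome that STAT factors recognise and that resembles the known BCL6 motif.
BCL6, chr3:187745419-187745718, strand -: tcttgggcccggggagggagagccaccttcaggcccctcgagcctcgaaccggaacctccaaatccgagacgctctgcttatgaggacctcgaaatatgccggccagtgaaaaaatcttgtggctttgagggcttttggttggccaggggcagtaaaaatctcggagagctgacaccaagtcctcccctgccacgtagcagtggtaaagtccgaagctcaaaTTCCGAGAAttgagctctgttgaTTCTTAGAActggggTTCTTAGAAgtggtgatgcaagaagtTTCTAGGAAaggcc
It holds 4 such matches, whose first bases lie at -28, -5, 11 and 37 from the gene start, while 7.66% of all promoters of this length hold 1 or more. None of the other promoters found for the 10 genes holds one, and for POU2AF1 no promoter was found.

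PRDM1 (Blimp-1), the repressor that drives plasma cell differentiation and that BCL6 is known to silence, had log2 signals of 10.65, 10.76, 10.22 and 10.73 in arrays labelled induced, against 7.55, 7.33, 7.24 and 7.01 in arrays labelled uninduced. The lowest induced value, that of replicate 3, lies far above the highest uninduced one, that of replicate 1. PRDM1 rose by 3.31 ± 0.12 (95% interval 3.04 to 3.58), a 9.90-fold higher signal (adjusted p = 2.89e-09). All 10 tested exon-level probe sets rose, by 2.42 to 4.20. The third and the fourth had the lowest p (4.04 ± 0.16 and 4.20 ± 0.17), and the fourth gave 10.80, 11.07, 10.49 and 10.92 in arrays labelled induced, against 6.87, 6.82, 6.55 and 6.25 labelled uninduced. The first was too dim to test. Its upstream promoter in RefSeq, the first of 2, is printed for comparison with those of PAX5 and ID2, again with E-boxes in capitals.
PRDM1, chr6:106086086-106086385, strand +: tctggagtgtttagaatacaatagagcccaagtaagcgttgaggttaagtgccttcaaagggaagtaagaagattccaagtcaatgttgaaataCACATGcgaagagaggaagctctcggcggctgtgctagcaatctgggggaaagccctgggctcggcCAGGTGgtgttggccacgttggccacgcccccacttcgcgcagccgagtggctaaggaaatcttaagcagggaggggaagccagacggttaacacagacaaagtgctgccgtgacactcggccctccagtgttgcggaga
It holds 2 E-boxes. Promoters were found for 9 of the 10 genes, with 12 entries in all. The NF-kB consensus matched only that of SPIB among them (5.91% of all promoters match), and the octamer ATGCAAAT matched none (1.77% of all), both strands searched. These matches describe letters and are not shown to be bound sites.

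The differences between labels had the same direction in both B codes for all 9 genes. PAX5 rose by 2.76 ± 0.11 within B_4 and 2.77 ± 0.11 within B_1, and PRDM1 by 3.35 ± 0.17 and 3.27 ± 0.17, in that order. ID2 changed by -5.51 ± 0.18 within B_4 and -4.93 ± 0.18 within B_1. Within B_4 8 of 9 genes passed (46.3% of all tested genes did) and within B_1 7 of 9 (48.7%), SPIB being the one that passed within B_4 alone. The difference between B codes was itself tested as an interaction: 0 of 9 passed, against 0.297% of all tested genes, and 1 (11.9% of all genes) had an unadjusted p under 0.05, ID2 (-0.57 ± 0.26, adjusted p = 0.417). Intervals of these interactions are wide, so equal responses in both B codes are not shown.

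Levels were also compared between the B codes. By limma 0 of the 9 genes passed in the comparison of B_4 with B_1, and 0% of all tested genes did (13.9% at an unadjusted p under 0.05). Unadjusted p under 0.05 was seen for 3 genes. IRF8 was 0.23 ± 0.10 in B_4 minus B_1 (adjusted p = 0.347), IRF4 -0.21 ± 0.08 (adjusted p = 0.303) and PRDM1 -0.27 ± 0.12 (adjusted p = 0.358). Among uninduced arrays alone 0 of 9 genes passed between B_4 and B_1, where 2.86% of all genes did, and among induced arrays 0 of 9, where 0.0652% did (8.18% of all genes and 0 of the 9 at an unadjusted p under 0.05). The means of IRF8 in uninduced arrays were 7.87 in B_4 and 7.56 in B_1, and those of BCL6 5.87 and 6.19, the 2 genes with an unadjusted p under 0.05 there (19.4% of all genes). Between titles ending in 4 and in 1, 0 of 9 genes passed limma and 0 had an unadjusted p under 0.05, against 0% and 7.04% of all tested genes.

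At exon level 99 of the 113 probe sets passed the filter on low values. Of these 46 rose, 9 fell and 44 did not pass, while of all 168240 tested probe sets 35.4% passed, 17.9% higher and 17.5% lower. The groups did not overlap for 61 of the 99, against 36.6% of all. The shares differ by gene: every tested probe set of PAX5 (12 of 12), IRF4 (11 of 11) and PRDM1 (10 of 10) rose, but 0 of 4 passed for SPIB and 2 of 21 for TCF3. No probe set passed in the opposite direction to its gene-level probe set. Between B codes, and in the interaction, 0 of the 99 passed, as did 0% of all tested probe sets.

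**Figure D3:**
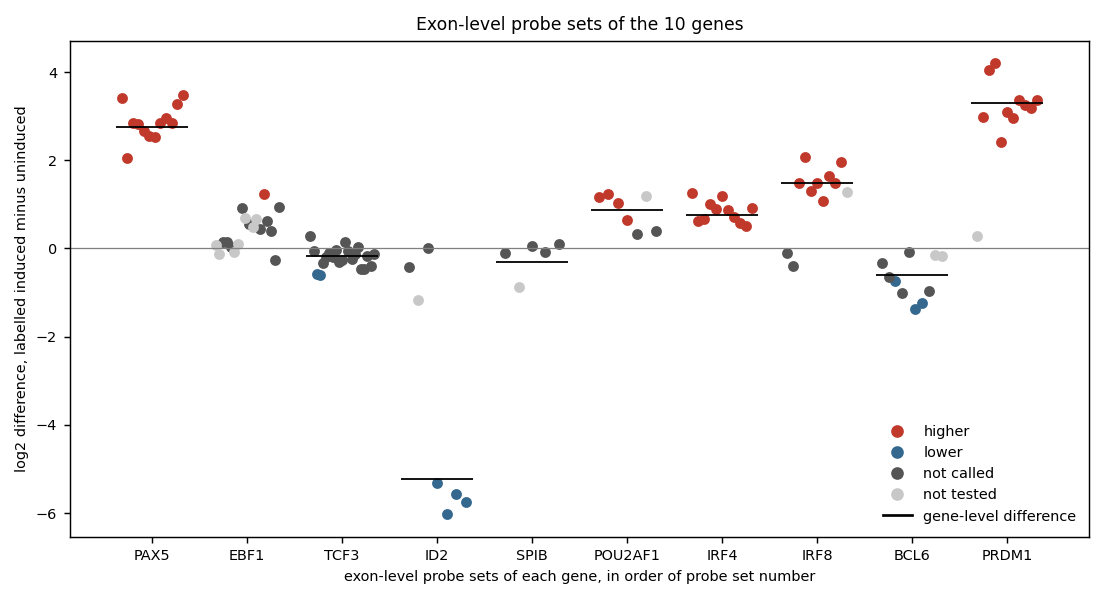
Log2 difference, labelled induced minus uninduced (vertical axis), of each exon-level probe set of the 10 genes, in order of its number within the gene; red rose, blue fell, dark grey did not pass, light grey was too dim to test, and black lines are the gene-level differences. Those of PAX5, IRF4 and PRDM1 that were tested are all red, and those of ID2 split into 4 near -5.3 to -6.0 and 3 near 0 to -1.2.

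Whether the probe sets of a gene changed by different amounts was tested with limma's diffSplice. It called 5 of the 10 genes, ID2, IRF8, PAX5, PRDM1 and IRF4, where 40.6% of 14639 tested genes passed, and on simulated data this test made more false calls than its threshold, so a call alone says little. ID2 had the largest F (108.4, adjusted p = 1.35e-16), followed by IRF8 (13.5, adjusted p = 4.27e-09) and PAX5 (9.07, adjusted p = 7.60e-08). All probe sets of PAX5 rose, the 12th the most, by 3.49 ± 0.15, and the second the least, by 2.04 ± 0.15. PRDM1 was called with F = 5.45 (adjusted p = 2.42e-04), the fourth probe set rising 1.01 more and the fifth 0.97 less than the others of the gene; the probe sets at the ends of these ranges were picked after their values were seen. The call for IRF4 (adjusted p = 0.0386) was lost with the Simes test (0.146) and in 6 of the 8 fits that left out an array, all but those without uninduced or induced replicate 3.

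Related genes were read from lists, described by their counts and medians; of all 13796 tested genes 27.1% rose and 28.4% fell, and 55.5% passed. Of 8 other E and ID proteins and their bHLH relatives 1 rose, 1 fell and 6 did not pass, with a median log2 difference of 0.05, against 0.02 over all genes. TCF4, the E protein E2-2, averaged 8.41 in arrays labelled induced and 10.53 in arrays labelled uninduced and fell by 2.12 ± 0.09. MSC (ABF-1), a bHLH repressor known with ID2 to restrain E2A in Hodgkin cells, rose by 1.07 ± 0.15, to 9.39 labelled induced against 8.31 labelled uninduced. The other ID genes did not pass: ID1 differed by -0.15 ± 0.10, ID3 by 0.04 ± 0.13 and ID4 by -0.08 ± 0.09 (adjusted p = 0.228, 0.837 and 0.492). TCF12, the E protein HEB, differed by 0.26 ± 0.15 (adjusted p = 0.157), and the leukaemia factors TAL1 and LYL1 by 0.06 ± 0.11 and 0.08 ± 0.10.

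Of 20 tested other regulators of B cells 8 rose, 7 fell and 5 did not pass (27.1% and 28.4% of all genes rose and fell), with a median of 0.08. LEF1, a Wnt factor of early B and T cells, fell by 4.33 ± 0.10, with means of 4.69, under the tested range, labelled induced and 9.02 labelled uninduced. FOXP1, a forkhead factor of B cells, fell by 2.11 ± 0.16. RUNX1 rose by 1.87 ± 0.11 and IKZF3 (Aiolos) by 1.51 ± 0.10. All 6 tested other members of the IRF family passed, against 55.5% of all genes: IRF2 (1.25 ± 0.10) and IRF1 (0.29 ± 0.11) rose, and IRF5 (-0.86 ± 0.08), IRF3 (-0.49 ± 0.08), IRF9 (-0.50 ± 0.14) and IRF7 (-0.32 ± 0.12) fell. All of these are smaller in size than the difference of IRF8, and IRF1 and IRF7 passed narrowly (adjusted p = 0.0446 and 0.0470).

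Genes that PAX5, EBF1 and TCF3 are known to activate were measured for 26 of 28 names, of which 18 passed the filter on low values. Of these 9 rose, 4 fell and 5 did not pass, beside 27.1% higher and 28.4% lower over all genes, with a median of 0.29. CD79A, a chain of the B-cell receptor, rose by 5.31 ± 0.12, CD22, its inhibitory coreceptor, by 4.11 ± 0.13, the exchange factor RASGRP3 by 3.86 ± 0.09 (against a dim uninduced mean of 4.17, under the tested range) and the kinase SYK by 2.53 ± 0.09. CD79B, the other signalling chain, lay near the array median and did not pass (-0.06 ± 0.13, adjusted p = 0.742), and the early B-cell genes RAG1, RAG2 and VPREB1 were too dim to test. The 4 that fell were CD37 (-2.31 ± 0.15), FCER2 (-0.91 ± 0.13), BLK (-0.79 ± 0.16) and PLCG2 (-0.315 ± 0.08). CD37 averaged 7.08 labelled induced and 9.39 labelled uninduced. Of genes that PAX5 is known in the mouse to repress, 3 of 7 measured were bright enough to test: NOTCH1 (2.48 ± 0.11) and the plasma cell factor XBP1 (1.49 ± 0.09) rose and CSF1R did not pass (0.16 ± 0.10), while FLT3, CD28, CCR2 and JCHAIN were too dim to test.

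**Figure D4:**
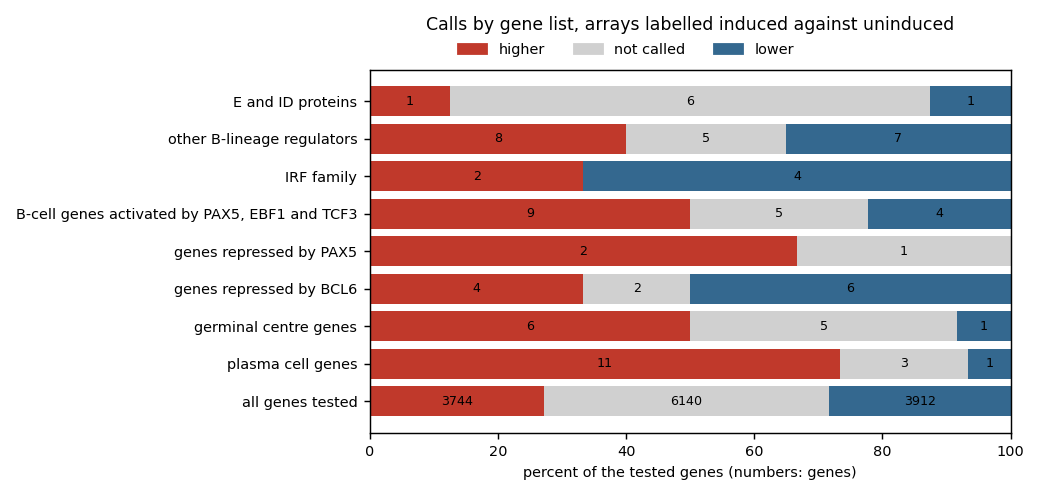
Share of the tested genes of each list (horizontal axis, percent) that rose (red), did not pass (grey) or fell (blue) in arrays labelled induced against uninduced, with the number of genes in each bar. Plasma cell genes have 11 of 15 higher and 1 lower, and genes repressed by BCL6 4 of 12 higher and 6 lower, beside 3744 higher and 3912 lower of all 13796.

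On the side of BCL6 and PRDM1, plasma cell genes rose in 11 of 15 tested cases, fell in 1 and did not pass in 3 (median 0.59), where 27.1% of all tested genes rose and 28.4% fell, shares that also stand beside the next lists. The ectoenzyme CD38 rose by 6.62 ± 0.10, TNFRSF13B (TACI), a receptor for BAFF and APRIL, by 2.25 ± 0.08, XBP1 by the value above and the chaperone MZB1 by 1.42 ± 0.13. The 1 that fell was the syndecan SDC1 (-0.39 ± 0.08), with means of 6.43 labelled induced and 6.81 labelled uninduced. JCHAIN, the joining chain of secreted immunoglobulins, was too dim to test, with means of 3.82 labelled induced and 4.68 labelled uninduced. Genes that BCL6 is known to repress moved both ways: of 12 tested, 4 rose, 6 fell and 2 missed the threshold (median -0.11). The costimulatory ligand CD80 (-4.37 ± 0.12), the adhesion receptor CD44 (-4.12 ± 0.18) and the chemokine CCL3 (-2.75 ± 0.14) fell, and the positioning receptor GPR183 rose (3.06 ± 0.23). Germinal centre genes rose in 6 of 12 tested cases, fell in 1 and did not pass in 5 (median 0.22). The fall was RGS13, a G protein regulator, at -5.12 ± 0.20, and among the rises were BCL7A (1.54 ± 0.08), KLHL6 (0.87 ± 0.12) and CXCR4 (0.86 ± 0.12). The uninduced mean of CD38 (4.58) and the induced mean of RGS13 (4.22) lie under the tested range, so the size of either difference rests on a dim signal.

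Markers of other cell types were read beside these factors, with 55.5% of all genes called. Of 10 T-cell markers 6 were tested and 1 rose, ZAP70 (2.09 ± 0.09). CD5 (0.18 ± 0.10), LCK (0.15 ± 0.08), CD4 (-0.06 ± 0.08) and CD8A (0.06 ± 0.10) did not pass. Nor did CD7 (0.02 ± 0.09), which lay above the array median in both groups (7.89 labelled induced, 7.87 labelled uninduced). CD3D, CD3E and CD3G, which define T cells, were too dim to test in either group. The summed log2 signal of the 10 ranged from 53.5 to 54.6 in arrays labelled induced and from 50.6 to 51.9 labelled uninduced. Such sums include untested genes and can rest on 1 gene, and most of this gap is that of ZAP70. Of 5 NK-cell markers 2 were tested and NKG7 rose (0.62 ± 0.14; sums 22.46 to 23.57 and 22.01 to 22.94, in the same order). GNLY did not pass (-0.05 ± 0.08), and NCAM1, KLRD1 and KLRF1 were too dim to test. Of 6 measured myeloid markers 5 were tested, CD68 rising (0.76 ± 0.08) and ITGAM falling (-0.40 ± 0.13), with LYZ too dim to test (sums 29.8 to 31.2 and 29.0 to 30.4). CD14 (0.07 ± 0.13) and TYROBP (-0.06 ± 0.08) did not pass. Of 8 fibroblast markers 6 were tested, PDGFRB rising (0.59 ± 0.08) and FAP falling (-5.27 ± 0.17, to a dim induced mean of 3.29), with DCN and LUM too dim to test (sums 38.02 to 38.97 and 42.75 to 43.72). COL1A1 (-0.04 ± 0.09), COL1A2 (-0.06 ± 0.08), COL3A1 (0.18 ± 0.09) and THY1 (-0.05 ± 0.08) did not pass, and the gap between the fibroblast sums rests on FAP. Hodgkin cell markers, 10 in all, rose in 2 cases, fell in 7 and missed the threshold in 1 (sums 62.2 to 63.6 and 77.4 to 79.0), and of 3 tested B-cell markers 2 rose and 1 did not pass, with MS4A1 too dim to test (sums 31.3 to 32.6 and 22.1 to 23.3). The part of these marker differences in the changes of the 10 genes was not tested.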

How the data were processed

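Per the labels' protocols, RNA of L1236 cells was turned into biotin-labelled cDNA and read on Affymetrix whole-transcript arrays. The deposited values are log2 signals made with RMA and Partek, per the submitters' processing notes; the base was inferred from what RMA normally gives and from the range, and the genome build is not given in the sources used here. RMA equalises arrays, so a global shift would be removed and dim signals compressed. The 16 samples are 8 arrays with 2 summaries each: 4428 of 4428 features in both tables were identical at tolerance 0.

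Probe sets were named from the platform annotation, and symbols were updated through RefSeq GRCh38.p14. Each gene kept its brightest probe set, and means under the 25th percentile were left out (13796 genes; 168240 exon-level probe sets with 1 symbol). Limma 3.58.1 in R 4.3.3 fitted induction label, B code and last number, with Benjamini-Hochberg adjustment over all tested features and a threshold of 0.05; a second fit gave values within B codes and their interaction, and diffSplice tested exon usage in genes with 3 or more tested probe sets. The scripts were tested on simulated data. Promoters came from RefSeq. Figures were drawn with matplotlib 3.10.9.

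The genes and lists were chosen with earlier results of these data known. Named genes are the 10 members, RELB, the 4 lowest p of each list (all of a list of 8 or fewer), the 2 lowest p among the exon-level probe sets of a member, and the 3 genes nearest in profile to each of the 3 members that changed most. Of these nearest genes, 1 is not reported here. Of the list names, 12 entries had no gene-level probe set of their own. CD3D, CD3E, CD3G, RAG1, RAG2 and VPREB1 are named outside this rule, for their low signal. SDC1, CD37, FCER2, BLK and PLCG2 are named outside it because they fell, after their values were seen. CD7 and CD8A are named to complete the tested T-cell markers. Exon-level probe sets are given singly where they differ within a gene. Exact permutation tests were run for RELB. Array dates were not used. Alternatives changed the filter, the scaling (quantile or median), the summary (means of probe sets or exon-level probe sets), the variance model (trend and robust), the design (replicate block, no covariates, each B code alone, each array omitted in turn) and, for exon usage, the test (Simes). The number of arrays limits the precision.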

Additional observations from a re-analysis of the deposited data

Results flagged for a closer look

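In groups of 4 arrays, 1 array stood apart from the other 3 in 7 of 172 groups examined, by a gap that chance exceeds in about 1 in 20 groups. Among the members this was ID2, with 4.64 in induced replicate 2 against 4.003 to 4.10 in the other induced arrays; without that array the difference was -5.42, against -5.22 with it. The others were IKZF3 in uninduced replicate 3 (8.33 against 8.06 to 8.08), IRF1 in uninduced replicate 4 (7.79 against 7.92 to 7.95), CD80 in induced replicate 1 (6.30 against 5.61 to 5.63), NKG7 in uninduced replicate 4 (6.90 against 6.28 to 6.30), CFI in uninduced replicate 3 (9.02 against 8.59 to 8.65) and TYROBP in induced replicate 3 (5.83 against 6.004 to 6.02).

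Of 86 genes and summaries examined for a difference between B codes in the change with induction label, limma's interaction called 2 related genes, against 0.297% of 13796 tested genes. On simulated data this interaction made more false calls than its threshold, and so, to a lesser degree, did the gene-level comparison of induction labels. Differences are given between arrays of the same B code and title ending. CD44 changed by -3.65 and -3.54 in B_4 and by -4.76 and -4.53 in B_1, a difference of 1.04 (adjusted p = 0.0368). GATA3 changed by -4.52 and -4.79 in B_4 and by -5.78 and -5.68 in B_1, a difference of 1.08 (adjusted p = 0.0372). Levels of both genes in uninduced arrays were lower in B_4. CD44 had 9.67 and 9.63 there against 10.50 and 10.46 in B_1, and GATA3 9.57 and 9.60 against 10.43 and 10.40. In induced arrays CD44 had 6.01 and 6.09 in B_4 against 5.75 and 5.92 in B_1. GATA3 had 5.05 and 4.81 against 4.65 and 4.71 in induced arrays, near the lowest gene-level mean tested (4.78). The mean of RELB's exon-level probe sets differed by -0.28 and -0.31 in B_4 and by 0.12 and 0.0048 in B_1; this difference of -0.35 did not pass as an interaction (adjusted p = 0.422).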

How the results depend on the processing

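Between the induction labels, the calls and directions of PAX5, PRDM1, ID2, IRF4, IRF8, POU2AF1 and BCL6 held in every alternative in which each was tested, and those of EBF1's exon-level mean in the 10 added for it after seeing the data. The difference of ID2 ran from -5.51 within B_4 to -3.46 averaged over exon-level probe sets, that of PRDM1 from 3.02 to 3.41 and that of PAX5 from 2.68 to 2.86. The number of these genes called ran from 6 to 9, and leaving out 1 array gave 7 to 8; SPIB lost its call in 7 of 18 alternatives, and the median filter left SPIB and BCL6 untested. RELB passed in none (adjusted p from 0.0923 to 0.723). Samples that share a replicate number had deviations that correlated at -0.0206 to 0.158, not all over 0.1, so the numbers were not taken to pair them. With the replicate block 8 of the 9 genes, 53 of the exon-level probe sets and 4 genes for exon usage were called, IRF4 losing that last call (adjusted p = 0.102). Leaving out 1 array gave 47 to 55 called exon-level probe sets and 4 to 6 genes for exon usage.

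Genes with an interaction numbered 41, 65 with median centring, 26 with exon-level means, 174 with a variance trend and robust fitting, and 0 to 33 without 1 array; between B codes 0 to 65 genes passed without 1 array, the 65 without induced replicate 4, and none of the 9. Signs near 0 turned without passing. Between B codes TCF3 gave 0.0249 with quantile normalisation and ID2 -0.0231 with median centring; without 1 array TCF3 ran from -0.0470 to 0.0342, ID2 from -0.15 to 0.22 and POU2AF1 from -0.19 to 0.12. In the interaction PAX5 gave 0.0070 with median centring; without 1 array PAX5 ran from -0.0376 to 0.0233, IRF4 from -0.12 to 0.0563, IRF8 from -0.39 to 0.0342, PRDM1 from -0.23 to 0.39 and SPIB from -0.45 to 0.0234. The cause of these changes was not tested. No detection calls were used, so which dim signals lie above background was not tested.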

Other observations

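The genes whose profile over the 8 arrays lay nearest to those of the 3 genes that changed most were found by the root mean square difference between mean-centred log2 values. Nearest to ID2 were MYOF (-5.39 ± 0.09), a membrane repair protein, CFI (-5.26 ± 0.11), complement factor I, and CRISPLD1 (-5.33 ± 0.11), at distances of 0.204, 0.217 and 0.222 log2 units. Among the 3 nearest to PRDM1 were MYO1D (3.20 ± 0.13), a myosin, and ATP10D (3.60 ± 0.10), a lipid transporter, at 0.137 and 0.165. Nearest to PAX5 were ATP2A3 (2.75 ± 0.09), a calcium pump of blood cells, TRPS1 (2.90 ± 0.09), a GATA-type repressor, and MBNL1 (2.72 ± 0.08), a splicing regulator, at 0.0896, 0.104 and 0.104. Values in brackets are log2 differences, labelled induced minus uninduced, with their SE, and the likeness rests mainly on that difference.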
